A study of Mus musculus with 8 samples.

Results

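The integrated stress response and the unfolded protein response were followed through 10 genes in bone marrow (BM) cells of Gfi1 knockdown (KD) and knockout (KO) mice. The genes were Atf4, Ddit3, Asns, Chac1, Trib3 and Ppp1r15a for the integrated stress response and Xbp1, Hspa5, Herpud1 and Dnajb9 for the unfolded protein response, 10 of the 41214 genes counted. They were chosen by name for their known roles, with the measured level of Ddit3 in view, which was higher in old KO than in sick KD mice. The difference between old KO and sick KD mice is therefore described for these genes without a test. Comparisons of either group with young mice use the same sick KD or old KO libraries. The p-values of the other genes in those comparisons are therefore no independent test. All 10 symbols matched 1 counted Ensembl identifier each, and all 10 genes passed the filter on low counts in every comparison.

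Whole BM of 8 C57Bl6 mice was sequenced, 1 library per mouse and 2 mice per group, to ask how low and absent Gfi1 differ before and after disease. KD mice carry a human GFI1 cDNA in the Gfi1 locus whose expression is kept low by a floxed neo cassette in antisense orientation, and KO mice lack Gfi1. Young KD mice were taken at 39 and 42 days of age and young KO mice at 48 and 44 days. Sick KD mice were taken at 187 and 78 days, when they had fallen ill, which the labels call AML and the study describes as a myeloproliferative disease, and old KO mice at 158 and 101 days. Wild-type BM was not analysed here, so every group carried a Gfi1 defect. Age and illness cannot be told apart between sick KD and young KD mice, and genotype and illness cannot be told apart between old KO and sick KD mice.

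In the integrated stress response, kinases that sense amino acid shortage, haem shortage, viral RNA or misfolded protein phosphorylate the translation factor eIF2, which lowers general translation and favours translation of the transcription factor Atf4. In the unfolded protein response, sensors in the endoplasmic reticulum (ER) membrane raise chaperones and degradation factors, partly through splicing of the Xbp1 mRNA. In blood formation, red cell precursors use the haem-sensing branch and antibody-secreting plasma cells depend on Xbp1. Much of both responses is set by phosphorylation, translation and splicing, which counts per gene do not measure.

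The libraries held 26642067 to 42679114 counts on genes. Reads outside annotated genes made up 42.0% and 38.8% of the reads in the sick KD libraries and 26.9% to 33.8% in the other 6. Mitochondrial genes took 1.42% and 1.16% of the counts in sick KD libraries and 0.464% to 0.787% elsewhere. Counts on the mouse Gfi1 gene were 5.49 to 7.15 CPM (counts scaled to a common library size) in the 4 libraries labelled KD and 13.3 to 29.7 CPM in the 4 labelled KO. The KD allele is a human cDNA, so the mouse gene cannot check these labels, and every direction below rests on them.

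Promoter windows of the 10 genes are shown first because several of them share a short element through which Atf4 and its partners are known to act. The windows are the RefSeq sequence on GRCm38.p6 from 250 bases before to 50 bases after the start, and all 10 genes had one. The C/EBP-ATF response element was searched on both strands as TTNCATCA and stood in 4 of the 10 windows, against 3.97% of all 32851 windows of that length. For each of the 10 genes only the first listed window was searched. The share over all windows counts every listed window, so a gene with several starts would enter it several times. The 4 genes are shown as 30 bases each on the strand of the gene, with the element in capitals, which in Asns lies on the opposite strand.

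Chac1, chr2:119351038-119351067, plus strand: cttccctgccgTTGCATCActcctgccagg
Herpud1, chr8:94386306-94386335, plus strand: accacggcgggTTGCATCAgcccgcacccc
Asns, chr6:7693214-7693243, minus strand: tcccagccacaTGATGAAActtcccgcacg
Trib3, chr2:152344028-152344057, minus strand: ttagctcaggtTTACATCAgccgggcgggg

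Counted from the RefSeq start, the element began at -193 in Chac1, -112 in Herpud1 and -23 in Asns, and at position 15 in Trib3. In Asns it lies inside the GENCODE locus given below, which starts further upstream. Elements of the unfolded protein response were rarer. The ER stress response element stood in 0.119% of all windows and in Hspa5, and its second form in 0.0365% of all windows and in Herpud1. In Hspa5 the element also lies inside the GENCODE locus. Both are shown with the element in capitals because Hspa5 and Herpud1 are the classical targets of that branch.

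Hspa5, chr2:34772020-34772049, plus strand: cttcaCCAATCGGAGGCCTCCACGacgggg
Herpud1, chr8:94386368-94386397, plus strand: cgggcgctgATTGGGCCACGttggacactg

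The XBP1 element TGACGTGG was in none of the 10 windows and in 0.676% of all windows. The cyclic AMP element TGACGTCA was in the window of Ppp1r15a and in 1.79% of all windows, and the AP-1 site TGANTCA was in the windows of Ddit3 and Hspa5 and in 7.81% of all windows. A match describes the letters only and is no evidence of binding. The 231 bases upstream of the annotated exons of Ddit3 are shown with the AP-1 site in capitals, and the 250 bases upstream of Atf4, in which none of these elements was found, stand beside them, because the levels of both genes were lowest in the sick KD libraries.

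Ddit3, chr10:127290543-127290773, plus strand: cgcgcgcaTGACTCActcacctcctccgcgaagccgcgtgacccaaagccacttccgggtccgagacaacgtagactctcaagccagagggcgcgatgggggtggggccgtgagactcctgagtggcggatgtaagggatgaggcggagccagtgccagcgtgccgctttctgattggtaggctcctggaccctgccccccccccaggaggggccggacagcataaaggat
Atf4, chr15:80254934-80255183, plus strand: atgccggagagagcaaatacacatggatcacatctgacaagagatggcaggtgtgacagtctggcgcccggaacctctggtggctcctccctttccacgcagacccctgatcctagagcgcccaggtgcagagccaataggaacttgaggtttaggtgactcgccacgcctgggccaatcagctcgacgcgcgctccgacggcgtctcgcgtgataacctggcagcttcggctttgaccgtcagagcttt

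The 10 genes differed widely in level. Per kilobase of exon, the median over the 8 libraries was 220 CPM per kb for Hspa5, 94.8 for Xbp1, 71.3 for Atf4 and 54.7 for Herpud1. It was 14.6 CPM per kb for Ppp1r15a, 10.7 for Asns, 7.02 for Dnajb9 and 5.12 for Ddit3, and under 1 for Chac1 and Trib3, at 0.515 and 0.310 CPM per kb. Neighbours in this order overlapped in their range over the libraries, except Hspa5 and Xbp1, Herpud1 and Ppp1r15a, and Ddit3 and Chac1. Chac1 rested on 24 to 34 counts per library and Trib3 on 10 to 40, so only large differences in these genes were detectable at this depth.

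**Figure D1:**
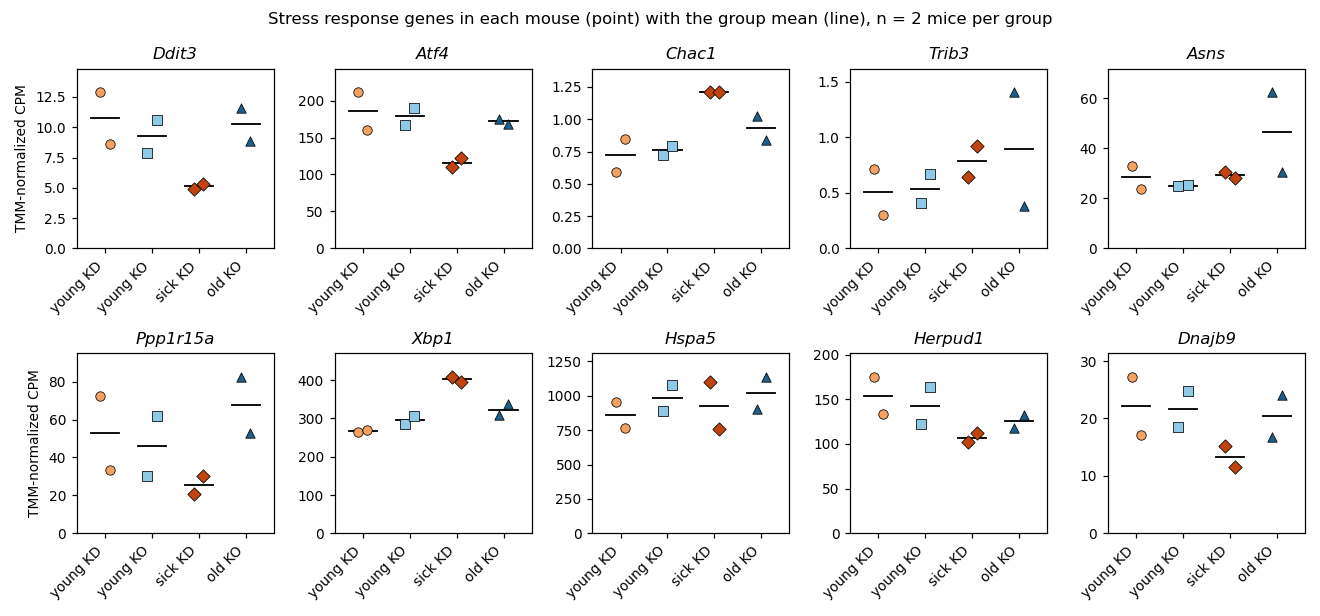
Level of each of the 10 genes in each of the 8 libraries, in TMM-normalized CPM on a linear axis from 0, with points for mice and short lines for group means. The sick KD points are the lowest for Atf4 and Ddit3 and the highest for Xbp1 and Chac1, and the points of Asns and Ppp1r15a spread within groups.

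Atf4, the transcription factor at the centre of the integrated stress response (chr15:80255184-80257541, GRCm38), stood at 212 and 160 CPM in young KD, 167 and 190 in young KO, 110 and 123 in sick KD and 175 and 169 in old KO BM. Both sick KD libraries lay below the other 6. The sick KD mean of 116 ± 9.29 CPM (SD, n = 2) compared with 186 ± 36.8 CPM in young KD, a log2 fold change of -0.68 (SE 0.16, edgeR adjusted p = 0.0311, Benjamini-Hochberg). The call was lost without young KD 1 (edgeR adjusted p = 0.189) and without sick KD 1 (edgeR adjusted p = 0.0787). Old KO and young KO differed by -0.06 (SE 0.10) on the log2 scale, and young KO and young KD by -0.06 (SE 0.15), with edgeR adjusted p of 0.935 and 1. Old KO minus sick KD was 0.57 (SE 0.12).

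Ddit3, which encodes the pro-apoptotic factor CHOP (chr10:127290774-127296288), is induced by Atf4. It stood at 12.9 and 8.65 CPM in young KD, 7.91 and 10.6 in young KO, 4.92 and 5.33 in sick KD and 11.6 and 8.88 in old KO. The sick KD libraries were again the lowest, and the other 3 groups overlapped one another. The means were 5.13 ± 0.289 CPM in sick KD and 10.2 ± 1.92 in old KO (SD, n = 2 each), a log2 difference of 0.997 (SE 0.23) that was known when the genes were listed. It ranged from 0.81 to 1.17 when 1 mouse was left out. Sick KD minus young KD was -1.08 (SE 0.24), and old KO minus young KO was 0.14 (SE 0.22), neither of them tested. Between the young groups, which did not enter that choice, the difference was -0.23 (SE 0.24, edgeR adjusted p = 1).

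Ddit3 shares exons with 2 genes on the opposite strand. Mars, the methionyl-tRNA synthetase, had 95.0 and 106 CPM in sick KD and 100.1 to 117 CPM in the other 6 libraries, and Gm4189 had at most 11 counts. The library kit keeps the strand, but the strand setting of the counting is not given in the sources used here. Reads of the shared exons may therefore have been tallied as ambiguous or assigned to the wrong gene. Ambiguous reads made up 0.461% to 0.580% of the reads in the libraries. Ppp1r15a shares exons with Tulp2, a gene on the opposite strand that had at most 3 counts in any library.

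Xbp1, the transcription factor whose spliced form drives secretory capacity (chr11:5520659-5525893), went the other way. It stood at 263 and 271 CPM in young KD, 286 and 308 in young KO, 409 and 396 in sick KD and 308 and 338 in old KO. Both sick KD libraries lay above the other 6, and both young KD libraries lay below them. Sick KD at 402 ± 9.22 CPM exceeded young KD at 267 ± 5.21 (SD, n = 2 each) by 0.58 on the log2 scale (SE 0.11, edgeR adjusted p = 0.0162). Leaving out young KD 1 or young KD 2 kept the fold change at 0.56 and 0.58 but raised the edgeR adjusted p to 0.189 and 0.12. Young KO minus young KD was 0.15 (SE 0.08, edgeR adjusted p = 1) and old KO minus young KO 0.12 (SE 0.10, edgeR adjusted p = 0.835). Old KO minus sick KD was -0.31 (SE 0.13). Counts per gene do not separate spliced from unspliced Xbp1.

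Asns, Chac1 and Trib3 are direct targets of Atf4 in most cells, and none of them passed the test in sick KD BM. Asns, asparagine synthetase (chr6:7675169-7693254), stood at 33.0 and 23.8 CPM in young KD, 24.8 and 25.3 in young KO, 30.5 and 28.0 in sick KD and 62.6 and 30.4 in old KO. The value of old KO 1 lay far above the other 7, and the sick KD libraries lay within the range of young KD. Sick KD minus young KD was 0.03 (SE 0.18, edgeR adjusted p = 0.907). Old KO minus young KO was 0.89 (SE 0.32, edgeR adjusted p = 0.479), and it fell to 0.28 without old KO 1 and rose to 1.32 without old KO 2.

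Chac1, an enzyme that degrades glutathione (chr2:119351229-119354381), stood at 0.595 and 0.844 CPM in young KD, 0.727 and 0.792 in young KO, 1.02 and 0.842 in old KO, and 1.21 in each of the sick KD libraries. The sick KD libraries were the highest. The log2 difference of sick KD and young KD was 0.75 (SE 0.33) and did not pass the test (edgeR adjusted p = 0.149). Trib3, a pseudokinase that restrains Atf4 and CHOP (chr2:152337422-152344032), stood at 0.719 and 0.302 CPM in young KD, 0.409 and 0.670 in young KO, 0.646 and 0.924 in sick KD and 1.41 and 0.383 in old KO. All of its groups overlapped. Sick KD minus young KD was 0.59 (SE 0.49, edgeR adjusted p = 0.417).

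Ppp1r15a, or GADD34, which returns eIF2 to its active state by recruiting a phosphatase (chr7:45522916-45526268), had a wide spread within groups. It stood at 72.2 and 33.3 CPM in young KD, 30.2 and 61.7 in young KO, 20.5 and 30.4 in sick KD and 82.5 and 52.8 in old KO. Sick KD lay below both young KD and both old KO libraries, but sick KD 2 lay just above young KO 1. Sick KD minus young KD was -1.06 (SE 0.37) and did not pass the test (edgeR adjusted p = 0.0874). That value depended on 1 mouse, since it was -0.40 without young KD 1 and -1.53 without young KD 2. Old KO minus sick KD, at 1.41 (SE 0.26), was the largest difference of the 10 genes between these 2 groups.

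Hspa5, or BiP, the main chaperone of the ER lumen (chr2:34771970-34777547), was the most abundant of the 10 genes. It stood at 955 and 766 CPM in young KD, 886 and 1077 in young KO, 1097 and 759 in sick KD and 905 and 1137 in old KO. Every pair of groups overlapped, and the sick KD libraries held both the lowest value and one of the highest. The log2 differences were 0.10 (SE 0.20, edgeR adjusted p = 0.747) for sick KD minus young KD, 0.05 (SE 0.16, edgeR adjusted p = 0.968) for old KO minus young KO and 0.19 (SE 0.14, edgeR adjusted p = 1) for young KO minus young KD.

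Herpud1, a scaffold of ER-associated degradation (chr8:94386438-94395377), stood at 175 and 133 CPM in young KD, 123 and 164 in young KO, 103 and 112 in sick KD and 118 and 133 in old KO. Both sick KD libraries were the lowest. The log2 difference from young KD was -0.53 (SE 0.15, edgeR adjusted p = 0.0554), just outside the threshold. Dnajb9, or ERdj4, a co-chaperone of BiP (chr12:44205559-44210326), stood at 27.2 and 17.2 CPM in young KD, 18.6 and 24.9 in young KO, 15.1 and 11.5 in sick KD and 16.7 and 24.1 in old KO. Both sick KD libraries were again the lowest, with a log2 difference from young KD of -0.75 (SE 0.25, edgeR adjusted p = 0.0795). Both genes passed with DESeq2 (adjusted p = 0.00977 and 0.0313). Without young KD 1 the differences of Herpud1 and Dnajb9 were -0.32 and -0.38, and without young KD 2 they were -0.74 and -1.06 and passed in edgeR (adjusted p = 0.0201 and 0.00519), so their calls depend on the test and on 1 mouse.

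Between young KO and young KD mice, the comparison of absent with low Gfi1 before disease, none of the 10 genes passed the test. The count of 0 of 10 in edgeR was also 0 at an unadjusted p under 0.05 and 0 in DESeq2 at both thresholds, beside 0.0404% of all 14839 genes tested that edgeR called. The log2 differences lay between -0.23 and 0.19. Xbp1 was the 1 gene of the 10 without overlap, higher in young KO, beside 14.8% of all genes higher without overlap.

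Between sick KD and young KD mice, 2 of the 9 tested genes passed, Xbp1 higher and Atf4 lower. Atf4 followed Ddit3, which was in view when the genes were listed, at a Pearson r of 0.96 over the 8 libraries. These calls are therefore no independent test. Across all 14656 genes the share called was 20.9%, with 9.45% higher and 11.4% lower, so 2 of 9 is near the background. With DESeq2 the count was 4, with Herpud1 and Dnajb9 added, both lower. Without young KD 1 it was 0, without sick KD 1 it was 1, and without young KD 2 it was 4, all lower. Chac1 and Xbp1 were higher without overlap in the 2 groups, and Ddit3, Atf4, Ppp1r15a, Herpud1 and Dnajb9 were lower without overlap, beside 34.3% and 32.4% of all genes.

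Between old KO and young KO mice, 0 of the 9 tested genes passed in edgeR, where 1 gene, Asns, had an unadjusted p under 0.05. DESeq2 called 0 at either threshold. The share of all 14847 genes called was 0.929%. The count became 1, Asns, without old KO 2. Chac1, Asns and Xbp1 were higher without overlap, beside 18.8% of all genes.

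Between old KO and sick KD mice, Ddit3, Atf4, Ppp1r15a, Herpud1 and Dnajb9 were higher without overlap, the last 2 at log2 differences of 0.23 (SE 0.12) and 0.62 (SE 0.23). Chac1 and Xbp1 were lower without overlap, at -0.38 (SE 0.32) and -0.31 (SE 0.13). These 5 and 2 of the 10 genes stand beside 32.5% and 33.5% of 14470 genes in these directions. Since this difference was known for Ddit3 when the genes were listed, no call is given and nothing is read from the counts. The same sick KD libraries serve in this comparison and in that with young KD mice. The median over the 10 genes, Ddit3 included, was 0.40 and is given as a description only. The difference of the KO-to-KD contrasts, old and sick minus young, was 1.22 (SE 0.35) for Ddit3, 1.61 (SE 0.62) for Ppp1r15a, 0.62 (SE 0.20) for Atf4 and -0.47 (SE 0.13) for Xbp1. It contains the contrast that was in view and was not tested for these genes.

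**Figure D2:**
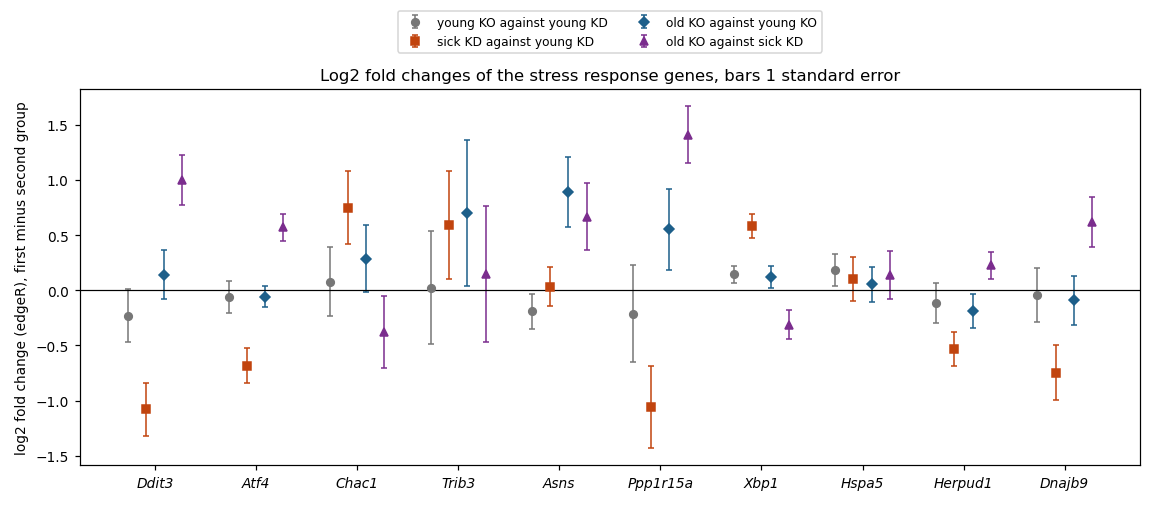
Log2 fold change of each of the 10 genes in 4 comparisons, with bars of 1 standard error from edgeR. Sick KD against young KD is negative for Ddit3 at -1.08 and Atf4 at -0.68 and positive for Xbp1 at 0.58, and old KO against sick KD has the opposite sign for these 3 genes.

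Summed markers of several cell types were lower in sick KD than in young KD and old KO mice, as were Ddit3, Atf4 and Ppp1r15a. Those of red cell precursors were among them, and so were the B cell markers and the plasma cell sum given below. Of the 8 plasma cell markers, 2 were called lower in sick KD than in young KD mice, beside 11.4% of all genes. Another 2 of the 8 had a log2 fold change above 0. The summed level of 10 erythroid markers, including the globins and Alas2, was 5306 and 2158 CPM in young KD, 1984 and 4592 in young KO, 964 and 1382 in sick KD and 6040 and 3807 in old KO. No marker was at 0 in any library. All 10 were called lower in sick KD than in young KD mice and all 10 higher in old KO than in sick KD mice in edgeR. Over all genes, 11.4% were called lower in the first comparison and 9.93% higher in the second. The marker counts that follow stand beside the same shares. Within each of the 4 groups, Ddit3, Atf4, Trib3 and Ppp1r15a were higher in the mouse with more erythroid marker CPM, beside 1153 of 15173 genes, 7.60%, that had this order in all 4 groups. Asns and Herpud1 had it in 3 groups, Chac1, Hspa5 and Dnajb9 in 2, and Xbp1 in 1. Summed macrophage markers stood at 322 and 280 CPM in sick KD and at 333 to 588 CPM in the other 6 libraries, and 7 of 10 were lower in sick KD than in young KD and 8 of 10 higher in old KO than in sick KD mice. Stroma and endothelium markers stood at 111 and 122 CPM against 183 to 311 CPM, with 6 of 8 lower and 3 of 7 higher. Markers of eosinophils, basophils and mast cells stood at 359 and 404 CPM against 461 to 1190 CPM. Of these 8, 1 was lower and 1 higher in sick KD than in young KD mice, beside 11.4% and 9.45% of all genes. In old KO, 6 of 8 were higher than in sick KD mice. Within all 4 groups their sum had the same order of mice as Ddit3, though the young KO sums were close, at 556.5 and 557.3 CPM. The macrophage sum and the stroma and endothelium sum were higher in young KD 2 and young KO 1, the opposite order to Ddit3 in the young groups. The B cell sum had the order of Ddit3 in every group except old KO, and the plasma cell sum in every group except young KD. The part of these cell types in the levels of the stress genes was not tested. In whole BM, fewer cells of a type and less RNA per cell cannot be told apart.

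**Figure D3:**
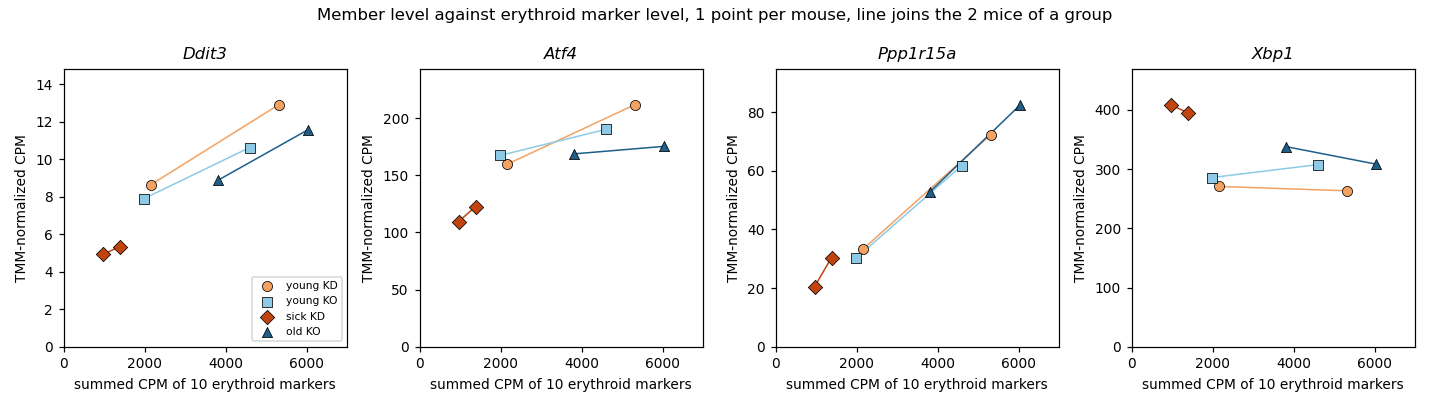
CPM of Ddit3, Atf4, Ppp1r15a and Xbp1 in each library against the summed CPM of 10 erythroid markers, both on linear axes from 0, with lines joining the 2 mice of a group. Ddit3, Atf4 and Ppp1r15a are higher in the mouse with more erythroid marker CPM in all 4 groups, and Xbp1 in 1.

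Other cell types also differed between the groups. Summed plasma cell markers, which include Derl3, stood at 267 and 309 CPM in young KD, 216 and 262 in young KO, 146 and 154 in sick KD and 669 and 365 in old KO. Of the 2 most abundant of these 8 markers, Irf4 stood at 14.1 and 21.9 CPM in sick KD and 54.6 to 134 CPM elsewhere, whereas Jchain, at 108 and 105 CPM in sick KD, lay within the range of the young mice, 82.8 to 142 CPM. Neutrophil markers, with 13 genes, stood at 10560 and 8468 CPM in sick KD and at 4651 to 6084 CPM in the other 6 libraries. Monocyte markers stood at 13070 and 12030 CPM in sick KD and at 7781 to 10280 CPM elsewhere, and B cell markers at 41.0 and 108 CPM against 147 to 1127 CPM. Their part in the level of Xbp1 was not tested.

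The rest of both pathways was read from a list of 125 other genes in 9 groups, 120 of which passed the filter. This list was chosen with earlier results of these data known, so its p-values are no independent test. Between sick KD and young KD mice, 9 rose and 8 fell, 14.2% of the 120, beside 20.9% of all genes. Jdp2, a partner of Atf4-type factors, rose from 14.1 and 10.97 CPM to 23.4 and 21.0 CPM (log2 fold change 0.82, SE 0.17, edgeR adjusted p = 0.0219). Sec24d, a coat protein of export vesicles, rose from 33.6 and 29.3 to 59.7 and 49.8 CPM (0.79, SE 0.14, edgeR adjusted p = 0.0153). Pdia3, a disulfide isomerase, rose from 224 and 215 to 392 and 347 CPM (0.75, SE 0.12, edgeR adjusted p = 0.0117). These 3 genes lay higher in both sick KD libraries than in all others. Sec24d kept its call when any 1 mouse was left out, and Jdp2 and Pdia3 lost theirs in 2 of the 4 cases, Jdp2 without young KD 2 or sick KD 1 and Pdia3 without either young KD mouse (highest edgeR adjusted p = 0.0906 and 0.0665).

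Among those that fell was Slc6a9, a glycine transporter, from 24.9 and 12.2 CPM to 4.97 and 8.11 CPM (log2 fold change -1.51, SE 0.38, edgeR adjusted p = 0.0383). Bbc3, the pro-apoptotic gene Puma and a target of CHOP and p53, fell from 5.33 and 5.07 to 2.26 and 2.88 CPM (-1.02, SE 0.24, edgeR adjusted p = 0.0323). Edem3, which trims sugars of misfolded proteins, fell from 176 and 175 to 96.6 and 84.0 CPM (-0.96, SE 0.12, edgeR adjusted p = 0.00615). All 3 were lowest in the sick KD libraries. Slc6a9 had a fold change of -0.91 (edgeR adjusted p = 0.0866) without young KD 1 and -1.20 (0.116) without sick KD 1, and its call was also lost with all 8 mice in 1 model (0.0581). Bbc3 lost its call without young KD 1 or sick KD 1 (highest edgeR adjusted p = 0.107), and Edem3 kept its call in all 4 cases.

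By group, 2 of 15 regulators of the integrated stress response rose and 3 fell, 2 of 8 amino acid transporters fell, 3 of 16 genes of translocation and export rose, and none of 12 aminoacyl-tRNA synthetases or 11 enzymes of amino acid synthesis passed. The 19 ER chaperones and folding enzymes split into 2 that rose and 1 that fell. The total of 17 dropped to 4 without young KD 1 and to 9 without young KD 2, and it was 44, with 31 higher and 13 lower, when each library's trend in GC content, length and span was removed.

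Between young KO and young KD mice, 0 of the 120 genes passed in edgeR and in DESeq2, and 7 had an unadjusted p under 0.05 in each. The 19 ER chaperones and folding enzymes all had a log2 difference above 0, with a median of 0.15 against -0.01 over all genes tested, and 15 of them were higher in young KO without overlap, beside 14.8% of all genes. Hspa5 had 0.19 in the same comparison. Other lists leaned the same way, with 15 of 16 genes of translocation and export and 11 of 12 aminoacyl-tRNA synthetases above 0. Of the 120 genes, 91 lay above 0 and 29 below, with a median of 0.07 against -0.01 over all genes tested. Higher without overlap were 46, beside 14.8% of all genes, and 7 were lower. The shares of all genes above 0 and lower without overlap were not taken, so nothing is read from these counts. All 8 mitochondrial chaperones and proteases and all 10 macrophage markers lay above 0, whereas all 10 erythroid markers lay below. Between old KO and young KO mice, 0 of 120 passed in edgeR and 11 had an unadjusted p under 0.05, while DESeq2 called 2, Derl3 and Txnip, both higher.

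Between old KO and sick KD mice, 13 of the 120 passed with a higher level in old KO and 7 with a lower one, 16.7%, beside 18.1% of 14470 genes, with 9.93% higher and 8.22% lower. As the list was chosen with earlier results of these data known, the p-values here, that of Bbc3 included, are no independent test. Slc6a9 stood at 37.6 and 17.7 CPM in old KO, a log2 difference of 2.07 from sick KD (SE 0.39, edgeR adjusted p = 0.0169). Bbc3 stood at 8.07 and 6.56 CPM, a difference of 1.51 (SE 0.26, edgeR adjusted p = 0.0125). Derl3, a channel protein of ER-associated degradation that plasma cells express highly, stood at 5.99 and 4.06 CPM against 1.90 and 1.99 CPM (1.37, SE 0.29, edgeR adjusted p = 0.0234). Bbc3 kept its call when any 1 mouse was left out, Slc6a9 lost it without sick KD 1 (1.77, edgeR adjusted p = 0.0653), and Derl3 kept it only without old KO 2. Slc6a9 had the same order of mice within groups as Ddit3, higher in old KO 1, sick KD 2, young KO 2 and young KD 1. The erythroid marker sum had this order too, as did 1153 of 15173 genes, 7.60%.

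On the other side were Psph, the last enzyme of serine synthesis, at 13.7 and 15.5 CPM in old KO against 29.6 and 21.9 CPM in sick KD (log2 difference -0.81, SE 0.19, edgeR adjusted p = 0.0292), and Erlec1, a lectin of ER-associated degradation, at 10.9 and 12.3 against 22.7 and 16.9 CPM (-0.77, SE 0.20, edgeR adjusted p = 0.0395). Mbtps2, the protease that releases Atf6, stood at 19.1 and 19.2 against 37.7 and 26.4 CPM (-0.74, SE 0.19, edgeR adjusted p = 0.037). Without sick KD 1 the differences of Psph, Erlec1 and Mbtps2 were -0.58, -0.54 and -0.46, and none passed (edgeR adjusted p = 0.105, 0.144 and 0.124). Without old KO 1 none of these 3 genes passed either, and Mbtps2 did not without old KO 2. The total of 20 fell to 5, all higher, without sick KD 1 and likewise without old KO 1. Bbc3, Dnajb11, Txnip and Cebpg were in both sets of 5. For the difference of the KO-to-KD contrasts, 6 of the 120 genes passed, beside 7.43% of 15102 genes.

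**Figure D4:**
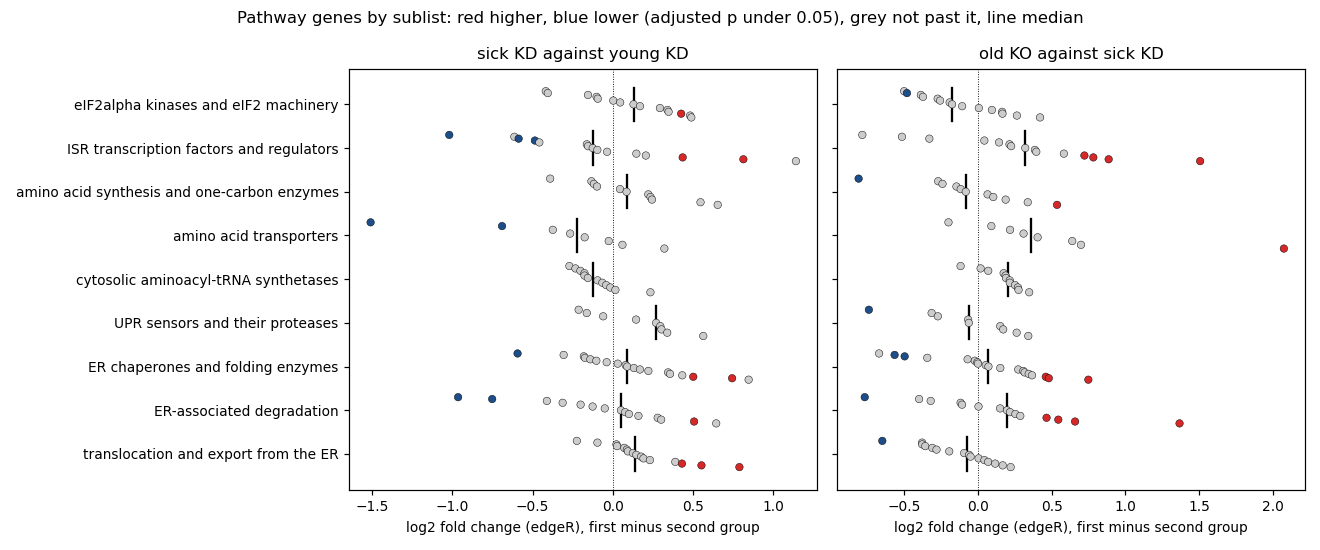
Log2 fold change of each tested gene of the 9 pathway groups in sick KD against young KD and in old KO against sick KD, with the genes past the threshold marked. Genes past the threshold lie on both sides of 0, 9 higher and 8 lower in the first comparison and 13 higher and 7 lower in the second.

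The genes most like 3 of the 10 across the 8 libraries were found by the Pearson correlation of log2(CPM + 1) over 9924 protein-coding genes, given as a description because libraries of a group share their condition. For Ddit3 they were Tfdp2 (r = 0.99), Pithd1, Ypel4, Dapk2 and Tspan8, and 539 genes had r over 0.9. For Xbp1 they were Tgfbi, Chst13, Gprin3, Casp6 and Plpp5 (r = 0.98 for the last), and 222 genes had r over 0.9. For Hspa5 they were Polr1a, Nqo2, Rab5a, Tyms and Stt3a (r = 0.92 for the last), and 9 genes had r over 0.9. With Spearman's rank correlation, Pithd1, Ypel4, Tspan8, Casp6 and Nqo2 were first or tied for first for their gene, whereas Plpp5 ranked 151 for Xbp1.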

How the data were processed

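RNA-seq of whole BM cells from 8 mice was analysed, 2 per group, each mouse assigned to its group by the sample titles. The authors prepared libraries with a stranded poly(A) kit, aligned reads to mm10 with TopHat 2.0.10, used SAMtools on the alignments, and deposited raw HTSeq counts for each Ensembl gene without normalization. Their DESeq results were not used. Symbols and GRCm38 coordinates came from GENCODE M21, which gave 40340 of the 41214 identifiers a symbol. Tallies of unassigned reads were left out of library sizes.

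The quasi-likelihood test of edgeR 4.0.16 (R 4.3.3) was run on all genes kept by filterByExpr, with TMM factors and the groups as design. The threshold was an adjusted p under 0.05 (Benjamini-Hochberg). Each comparison was fitted on its own 4 mice, and the difference of the KO-to-KD contrasts on all 8. Standard errors were derived from the F statistic of this test, as the size of the log2 fold change over the root of F. CPM were scaled by TMM. With 2 mice per group an exact two-sided permutation test cannot go below p = 0.333, so none is given. Mice of a group differed by far more than counting error, with chi-square per degree of freedom of 21.8 to 35.9, so no library was a duplicate. At 26642067 to 42679114 counts per library, 3 counts correspond to 0.0681 to 0.121 CPM, and counting error alone limits genes with few counts.

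The 10 genes, the pathway list and the marker lists were chosen with earlier results of these data known. All 10 genes are named. In the erythroid list, 1 marker gene is not reported here and was left out of the sums and counts. For each comparison, up to 3 pathway genes per direction were named, those with the largest change past the threshold and, between groups, without overlap. Other pathway genes appear only where a count of 5 or fewer was spelled out. The exceptions are Mars, named for its overlap with Ddit3, and Dnajb11, named among the interaction genes. From each further list of stress genes the 2 with the highest mean CPM were named, and the rest that appear passed the threshold and were chosen after their values were seen. Alternatives were DESeq2 1.42.0 with its size factors or its Wald test, stricter and looser low-count filters, 1 model of all 8 mice, leaving out the 50 genes with most counts, removing each library's trend in GC content, length and span (mgcv 1.9.3), and leaving out each mouse in turn. The edgeR fit was run on simulated counts with known changes, and the other steps were not.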

Additional observations from a re-analysis of the deposited data

Results flagged for a closer look

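In 6 pathway genes the KO-to-KD difference was not the same in old and sick mice as in young mice, by edgeR's test of the interaction in all 8 mice. For Bbc3, the difference of log2 differences was 1.56 (SE 0.30, edgeR adjusted p = 0.0273), with mean levels of 5.20 CPM in young KD, 4.98 in young KO, 2.57 in sick KD and 7.31 in old KO. For Txnip, which inhibits thioredoxin, it was 0.88 (SE 0.15, edgeR adjusted p = 0.0218), with 427 and 429 CPM in young KD and KO and 307 and 566 CPM in sick KD and old KO. For Edem3 it was 0.67 (SE 0.14, edgeR adjusted p = 0.0329) and for Dnajb11, a co-chaperone of BiP, 0.58 (SE 0.13, edgeR adjusted p = 0.0419). For Eif2s2, a subunit of eIF2, it was -0.59 (SE 0.13, edgeR adjusted p = 0.0387) and for Pdia3 -0.71 (SE 0.14, edgeR adjusted p = 0.0318). In both of these genes sick KD had the highest mean, at 142 and 370 CPM. These are 6 of 120 genes, 5%, beside 7.43% of all genes. The pathway list was chosen with earlier results of these data known, so these p-values are no independent test. Leaving out 1 mouse gave 0 genes without young KD 1, young KO 1 or young KO 2 and 1 to 11 without each of the others. Of the 8 such cases, Txnip passed in 5, Bbc3, Edem3 and Pdia3 in 2 and Eif2s2 in 1.

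Xbp1 was noted because both young KO libraries lay above both young KD libraries while both old KO libraries lay below both sick KD libraries. Of all genes, 14.8% were higher without overlap in the first comparison and 33.5% lower in the second, and the share with both was not taken. The second comparison was in view when the genes were listed. The difference of these differences was -0.47 on the log2 scale and was not tested.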

How the results depend on the processing

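Chac1 and Trib3 rested on 24 to 34 and 10 to 40 counts per library, so counting error is large for both. Trib3 had 40 and 15 counts in the 2 old KO mice. The counts of calls depended on the method more than the fold changes did. In sick KD against young KD mice, 2 of the 9 tested genes passed in the main analysis, 4 with DESeq2, 5 with no filter on low counts and 4 with the library trends removed. The pathway count of 17 (9 higher, 8 lower) became 27 with DESeq2, 32 with no filter, 31 with all 8 mice in 1 model and 44 (31 higher, 13 lower) with trends removed. In old KO against young KO mice, the counts of 0 became 1 with no filter for the 9 genes, and 2 with DESeq2 and 5 with no filter for the pathway. In old KO against sick KD mice the pathway count of 20 became 32 with all 8 mice. For the interaction the count of 6 (4 higher, 2 lower) became 13 with DESeq2, 19 with no filter and 13 (5 higher, 8 lower) with trends removed. Jdp2 and Slc6a9 lost their call in sick KD mice with all 8 mice (edgeR adjusted p = 0.0647 and 0.0581). The cause of these changes was not tested. Dnajb9 changed sign in old KO against young KO mice with trends removed, from -0.09 to 0.0116.

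Leaving out each mouse gave 0 to 4 of the 9 genes and 4 to 24 pathway genes in sick KD against young KD mice, 0 to 1 of the 9 genes in old KO against young KO mice, 5 to 21 pathway genes in old KO against sick KD mice and 0 to 11 for the interaction. The untested median of the 10 genes in old KO against sick KD mice stayed between 0.31 and 0.46, and the counts between young groups stayed at 0 under every setting. Fold changes that changed sign on leaving out a mouse were, for young KO against young KD, Ddit3 (-0.48 to 0.0945), Atf4 (-0.25 to 0.16), Chac1 (-0.16 to 0.34), Trib3 (-0.44 to 0.81), Asns (-0.40 to 0.0688), Ppp1r15a (-0.82 to 0.46), Herpud1 (-0.34 to 0.10) and Dnajb9 (-0.33 to 0.33). For sick KD against young KD they were Asns (-0.20 to 0.28) and Hspa5 (-0.19 to 0.35), and for old KO against young KO Ddit3 (-0.07 to 0.37), Atf4 (-0.15 to 0.0427), Trib3 (-0.47 to 1.40), Hspa5 (-0.12 to 0.21), Herpud1 (-0.39 to 0.0376) and Dnajb9 (-0.38 to 0.15). Of the untested differences between old KO and sick KD, Trib3 (-1.02 to 0.83) and Hspa5 (-0.10 to 0.43) did so. No paired analysis was possible because the labels give each mouse its own number and share none between groups.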

Other observations

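Stress genes outside both responses were read from 3 further lists. Of 10 cytosolic heat shock genes tested, 0 passed between sick KD and young KD mice in edgeR, and Hspa1a and Hspa1b were higher in old KO than in sick KD mice, by 1.39 (SE 0.37, edgeR adjusted p = 0.0453) and 1.34 (SE 0.28, edgeR adjusted p = 0.0226) on the log2 scale, 2 of 10 beside 9.93% of all genes higher in that comparison. These 2 genes are near-identical copies, so their reads may have been split between them. The 2 most abundant, Hspa8 at 1147 to 1665 CPM and Hsp90ab1 at 996 to 1094 CPM, had log2 differences of 0.14 (SE 0.18) and -0.03 (SE 0.11) in sick KD against young KD mice.

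Of 8 mitochondrial chaperones and proteases, Hspd1, Dnaja3 and Lonp1 fell and Clpp rose in sick KD against young KD mice, 4 of 8 beside 20.9% of all genes. Hspd1, the mitochondrial chaperonin, stood at 160 and 149 CPM in sick KD and at 199 to 250 CPM in the other 6 libraries, a log2 fold change of -0.51 from young KD (SE 0.13, edgeR adjusted p = 0.0366). Hspa9 stood at 223 and 202 CPM in sick KD and 260 to 293 CPM elsewhere (-0.35, SE 0.11, edgeR adjusted p = 0.0722). Of 12 immediate early genes, Jund, Egr2 and Btg2 fell in sick KD against young KD mice and none rose, beside 11.4% and 9.45% of all genes. Jund and Btg2 were higher in old KO than in sick KD mice, beside 9.93% of all genes. Btg2 stood at 106 and 132 CPM in sick KD and 192 to 283 CPM elsewhere, and Junb at 160 and 223 CPM against 131 to 194 CPM. The summed immediate early genes were higher in old KO 2, sick KD 2, young KO 2 and young KD 1, the same mouse as for Ppp1r15a in 3 of the 4 groups.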
